A study of Homo sapiens with 8 samples.

Results

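Box H/ACA and Cajal body RNAs were taken as the genes of the deposited table whose symbol begins with SNORA or SCARNA and whose mean over the 8 libraries was at least 10 normalised counts. That rule kept 78 of 135 such symbols, 61 named SNORA and 17 named SCARNA. Of the others, 27 had no read in any library and 30 had reads but a smaller mean. The members' means ran from 10.3 to 873 with a median of 50.7. Just inside the threshold were SNORA12 at 10.3, SCARNA11 at 10.4 and SNORA68 at 10.7, and just outside were SNORA67 at 9.68, SNORA37 at 9.58 and SCARNA24 at 9.33. The members were chosen by symbol and by their mean count over all 8 libraries, treated ones included, and 16 members had a mean below 10 in the 4 libraries without AT7519, so these 16 passed only through the libraries with AT7519 and had to differ between them. The other 62 had a mean of at least 10 on both sides.

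Box H/ACA RNAs are short guide RNAs that fold into a pair of hairpins, separated by a hinge with the box H and closed by a tail with the box ACA. Each binds the same core of proteins, of which dyskerin (DKC1) is the enzyme, and pairs with a target RNA so that a chosen uridine becomes pseudouridine. SNORA RNAs act in the nucleolus on ribosomal RNA, while Cajal body RNAs (SCARNA) are held in the Cajal body and guide changes to the small nuclear RNAs of the spliceosome. In humans nearly all of these RNAs are cut out of introns of host genes after splicing, and many hosts encode ribosomal proteins or are non-coding snoRNA host genes (SNHG).

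The study treated LNCaP cells, an established prostate cancer line from a lymph node metastasis, for 4 h in 4 groups of 2 libraries: control, 40 uM OSMI-2, 0.5 uM AT7519, and the combination of 40 uM OSMI-2 with 0.5 uM AT7519. OSMI-2 inhibits O-GlcNAc transferase (OGT), which adds a sugar to nuclear and cytoplasmic proteins, and AT7519 inhibits several cyclin-dependent kinases, among them CDK9, which drives elongation by RNA polymerase II. The series design text gives the doses in uM, while the treatment protocol of the samples gives the same figures in mM, and what the control cells received is not stated. The title places the interest of the series in CDK9 after loss of OGT activity.

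The libraries held 60152710 to 154367238 reads in genes, and a count of 3 reads, taken as the floor, corresponded to 1.76 to 5.47 normalised counts. The 8 luminal prostate markers reported here (KLK3, KLK2 and others) all had a mean of at least 10, with a summed level of 379807 to 475217 normalised counts in every library, while the 3 leukocyte markers summed to 0 to 7.46 and 2 of 3 basal, 2 of 4 stromal and 1 of 2 endothelial markers had means below 10 (summed levels 41.8 to 106, 2213 to 4233 and 1132 to 1506, the last all VWF). Mitochondrial mRNAs took 4.45% to 5.53% of reads without AT7519 and 6.57% to 7.73% with it. Nothing in the labels says whether the 2 libraries of a group came from separate cultures, so p-values measure only the spread between these libraries.

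The sequences below show the boxes that define the members and the RNAs on which the results turn: 4 that rose with AT7519, 3 of those that fell in the combination relative to AT7519, and a Cajal body RNA that carries both kinds of domain. They are GENCODE release 29 transcripts (GRCh38), written 5′ to 3′ as DNA. In the first 7, capitals mark the box ACA (letters ACA ending at most 5 nt from the 3′ end) and, where exactly 1 such match lay between stems of the predicted fold, the box H (ANANNA in the hinge).
SNORA45: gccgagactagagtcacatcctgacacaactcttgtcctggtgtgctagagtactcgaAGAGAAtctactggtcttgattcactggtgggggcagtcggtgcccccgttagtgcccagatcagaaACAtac
SNORA33: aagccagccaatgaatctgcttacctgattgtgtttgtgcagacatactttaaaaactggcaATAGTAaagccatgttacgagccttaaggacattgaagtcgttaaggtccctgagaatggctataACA
SNORA53: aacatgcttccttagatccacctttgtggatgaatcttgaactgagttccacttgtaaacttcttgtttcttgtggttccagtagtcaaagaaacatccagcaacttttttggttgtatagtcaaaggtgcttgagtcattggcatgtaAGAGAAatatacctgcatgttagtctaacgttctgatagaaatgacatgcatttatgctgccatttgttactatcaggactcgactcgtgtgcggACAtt
SNORA73B: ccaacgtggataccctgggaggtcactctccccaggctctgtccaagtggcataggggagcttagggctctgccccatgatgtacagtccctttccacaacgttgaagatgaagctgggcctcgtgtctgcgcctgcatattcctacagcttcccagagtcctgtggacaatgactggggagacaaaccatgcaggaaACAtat
SNORA76: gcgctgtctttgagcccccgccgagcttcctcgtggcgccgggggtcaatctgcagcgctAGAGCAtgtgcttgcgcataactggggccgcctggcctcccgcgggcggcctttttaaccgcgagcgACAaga
SNORA26: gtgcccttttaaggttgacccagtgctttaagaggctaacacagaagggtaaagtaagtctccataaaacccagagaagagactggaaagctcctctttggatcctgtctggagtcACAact
SCARNA13: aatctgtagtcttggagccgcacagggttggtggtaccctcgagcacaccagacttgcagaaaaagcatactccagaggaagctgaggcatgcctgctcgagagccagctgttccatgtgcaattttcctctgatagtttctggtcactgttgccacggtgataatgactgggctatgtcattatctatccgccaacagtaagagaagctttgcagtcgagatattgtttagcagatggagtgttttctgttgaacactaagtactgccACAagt
In SCARNA6 the capitals instead mark every TGATGA and CTGA, the letters of boxes C and D.
SCARNA6: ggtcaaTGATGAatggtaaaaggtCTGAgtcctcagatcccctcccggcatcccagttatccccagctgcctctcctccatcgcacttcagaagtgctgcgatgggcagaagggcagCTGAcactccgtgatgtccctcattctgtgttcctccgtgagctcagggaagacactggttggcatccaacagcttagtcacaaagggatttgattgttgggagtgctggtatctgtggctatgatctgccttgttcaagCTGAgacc

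Motif matches were searched on the transcript strand only. ACA near the end was found in 53 of 59 SNORA members with a sequence (89.8%), and in 79 of the 88 other SNORA transcripts of the annotation (89.8%). ANANNA between stems was found in 64.4% of SNORA members and in 45.5% of the other SNORA transcripts. TGAG, the letters of the Cajal body localisation box, was found in 13 of 17 SCARNA members (76.5%) and 4 of 7 other SCARNA transcripts (57.1%). It was found in 23 of 59 SNORA members (39%) and 41 of 88 other SNORA transcripts (46.6%). TGATGA was found in 8 of 17 SCARNA members (47.1%), 2 of 7 other SCARNA transcripts (28.6%) and 2 of 59 SNORA members (3.39%). CTGA was found in 82.4%, 42.9% and 52.5% of these, and such short words recur by composition alone, so a match describes the letters and is not a site. Transcript length, up to 420 nt in SCARNA2, was not taken into account.

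By class, 61 members were H/ACA RNAs of the SNORA series, 10 were H/ACA Cajal body RNAs, 4 were box C/D Cajal body RNAs (SCARNA2, SCARNA7, SCARNA9 and SCARNA17), which guide ribose methylation instead, and 3 carried both kinds of domain (SCARNA5, SCARNA6 and SCARNA10). GENCODE held 76 of the 78, 70 by symbol and 6 by an older symbol, while SNORA2 and SNORA74 were not matched. The matched transcripts were 122 to 420 nt long, with a median of 134.5 nt. A tested host gene on the same strand was found for 70 members, in 59 distinct hosts: 60 members lay in coding hosts and 10 in long non-coding ones. Of these 70, 59 lay wholly in an intron and 11 overlapped an annotated exon of the host. At least 95% of letters were shared with another annotated transcript by 6 members (SNORA15, SNORA22, SNORA40, SNORA59A, SNORA76 and SNORA7B), so reads could be divided among copies and their values are uncertain.

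Levels can be set against each other only per length. In control cells the highest levels per 100 nt were those of SNORA76 at 647 ± 62.3 normalised counts (SD, n = 2), SCARNA15, a guide for the U2 small nuclear RNA, at 506 ± 39.1, SNORA14B at 181 ± 53.6, SNORA33 at 160.1 ± 14.7 and SNORA66 at 157 ± 0.808. SNORA76 and SCARNA15 lay further apart than their SDs, while SNORA14B, SNORA33 and SNORA66 did not. With AT7519 the order changed at the top: SNORA33 had 1400 ± 164 per 100 nt, SCARNA15 had 873 ± 90.5, SNORA45 had 684 ± 156, SNORA72 had 540.3 ± 34.5 and SNORA76 had 488 ± 65.6. The 10 members with the highest means held 52.6% to 58.1% of the members' counts in each library.

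Summed over the 78 members, the levels in CPM (relative to all reads in genes) were 55.3 and 56.7 in the control libraries, 53.7 and 54.4 with OSMI-2, 104 and 137 with AT7519, and 117 and 116 in the combination. The 4 libraries with AT7519 were all above the 4 without it. The 61 SNORA RNAs gave 37.6 and 40.4 in control, 33.4 and 33.6 with OSMI-2, 84.0 and 109 with AT7519 and 91.2 and 99.4 in the combination. The 17 Cajal body RNAs gave 17.7 and 16.4 in control, 20.3 and 20.8 with OSMI-2, 19.9 and 28.4 with AT7519 and 26.0 and 17.02 in the combination, and here the treated groups overlapped. In a bulk library, fewer cells and less RNA per cell cannot be told apart, and a read within one of these genes can come from the mature RNA or from the unspliced intron that holds it, which the counts do not separate.

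With OSMI-2 alone, 48 of the 78 RNAs had a negative change and 1 passed the test. Calls here are those of limma on log2(normalised count + 1) at a Benjamini-Hochberg adjusted p below 0.05 over all 19393 tested genes, and fold changes are on that scale. Of the 78, 1 fell and 0 rose, against 2.38% of all tested genes called lower and 0.645% called higher. Without adjustment 12 members had p below 0.05, and so did 3450 of all 19393 tested genes. In 23 members both OSMI-2 libraries were below both control libraries and in 6 both were above, against 30.1% and 23.5% of all tested genes. The call was SNORA73B, an H/ACA RNA of the kind needed for processing of ribosomal RNA precursors rather than for pseudouridine. Its counts were 118 and 171 in control and 75.6 and 58.0 with OSMI-2, with no overlap, a fall of 2.13-fold (log2 change -1.09, SE 0.249, adjusted p = 0.033). The call was absent without control replicate 2, OSMI-2 replicate 1 or OSMI-2 replicate 2, where 0 members were called. Its host SNHG3 had 10136 and 9319 counts in control and 7788 and 7930 with OSMI-2, and relative to their hosts 0 of 69 members were called (0.364% of all 275 nested small RNAs were called higher and 0% lower).

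After AT7519, most of these RNAs were higher. Of the 78, 48 rose and 2 fell, while among all tested genes 26% were called higher and 27.2% lower. The median log2 change was 1.45 for the members and -0.00417 for all tested genes. The rises ran from 0.724 to 4.33 on the log2 scale, and 24 of the 48 were of at least 2 (at least 4-fold). In 65 members both AT7519 libraries were above both control libraries and in 3 both were below (37.7% and 38.4% of all tested genes). Among the 62 with a mean of at least 10 on both sides, 38 rose and 2 fell. Scaled to equal mitochondrial mRNA instead, 30 members rose and 9 fell, with a median log2 change of 0.549 against -0.911 for all genes. Scaled to equal totals, 40 rose and 2 fell, with medians of 1.12 and -0.343. The box C/D RNAs of the nucleolus (SNORD, mean of at least 10) behaved alike by count: 53 of 85 rose and 2 fell, with a median of 1.66.

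**Figure D1:**
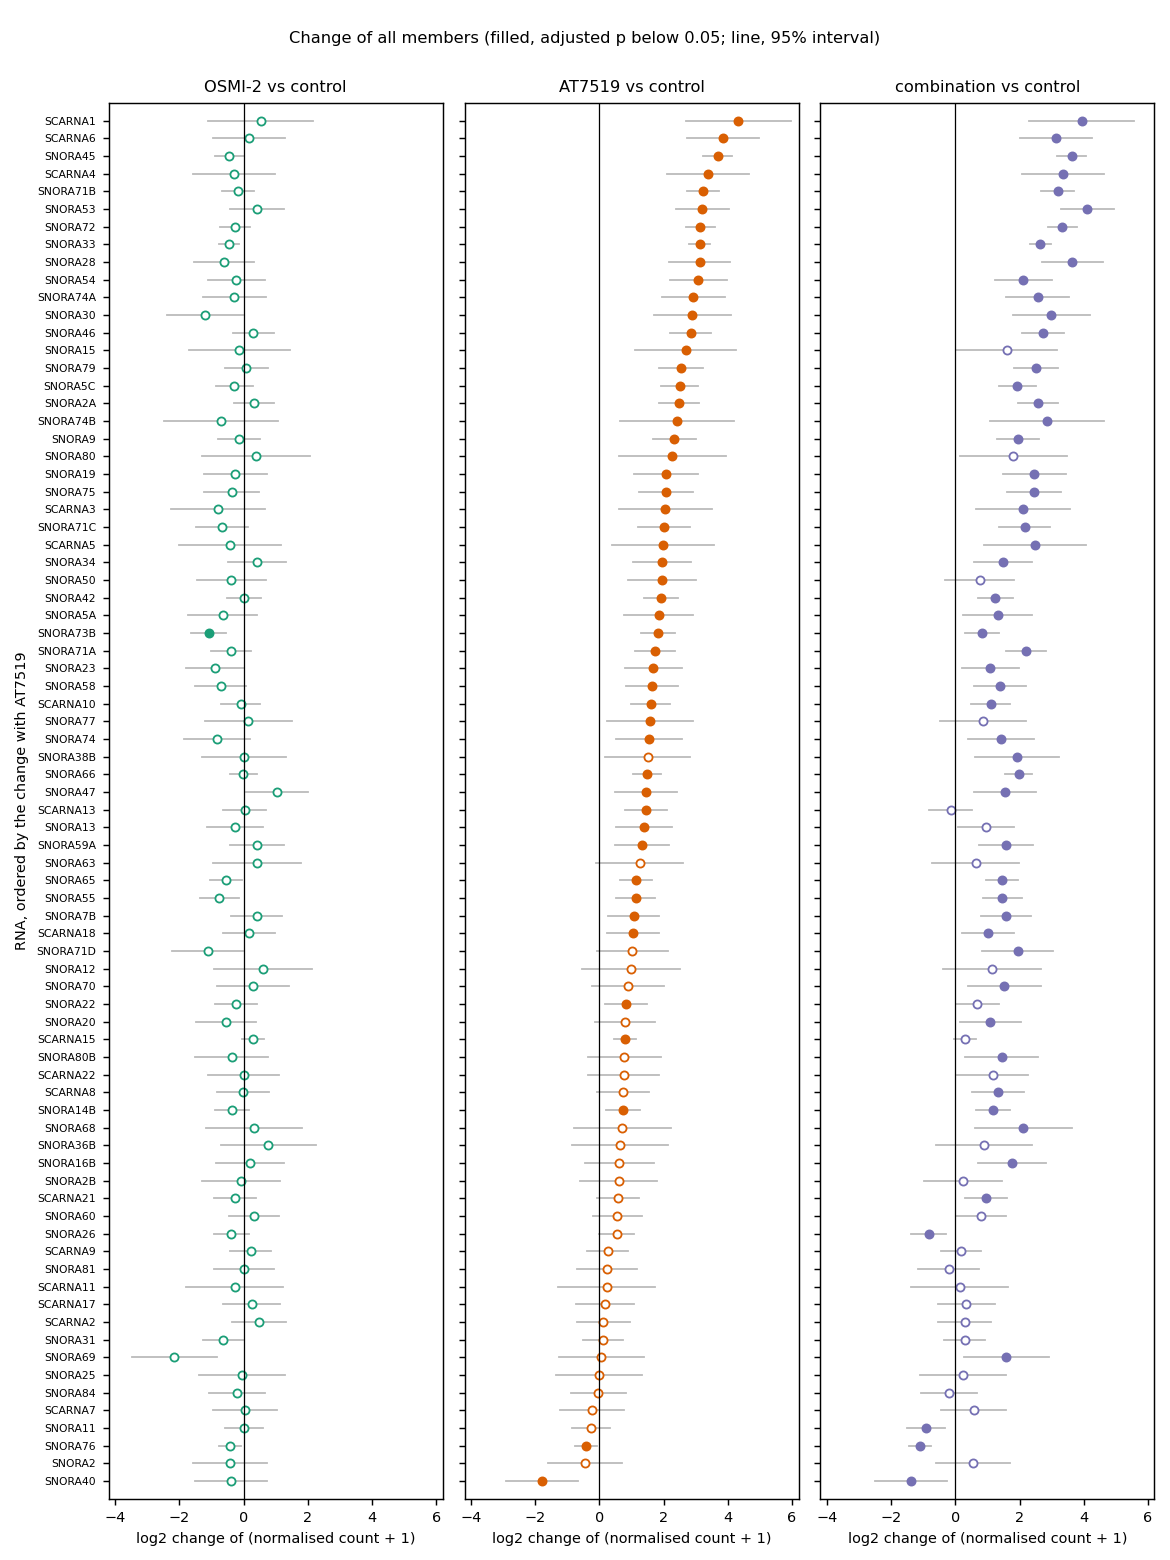
Log2 change of (normalised count + 1) for each of the 78 RNAs in 3 comparisons against control, ordered by the change with AT7519; points are limma estimates from 2 libraries a group, lines 95% intervals, and filled points have an adjusted p below 0.05. With OSMI-2 the 1 filled point is SNORA73B, while 50 points are filled with AT7519 and 54 in the combination, nearly all to the right of 0.

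Several members hosted by ribosomal protein genes were among those with the highest counts after AT7519. SNORA33, in an intron of RPS12, had 195 and 222 counts in control, 143 and 159.9 with OSMI-2, 1669 and 1971 with AT7519 and 1288 and 1335 in the combination. SNORA45, in an intron of RPL27A, had 70.0 and 65.9 in control, 46.1 and 53.0 with OSMI-2, 751 and 1040 with AT7519 and 792 and 908 in the combination. For both, every library with AT7519 was above every library without it. SNORA33 rose 8.69-fold with AT7519 (log2 change 3.12, SE 0.152, adjusted p = 8.3e-09) and SNORA45 rose 12.8-fold (log2 change 3.68, SE 0.209, adjusted p = 2.51e-08). SNORA72, in an intron of RPL30, had 75.9 and 84.2 in control, 63.8 and 68.8 with OSMI-2, 681 and 745 with AT7519 and 667 and 985 in the combination. Its rise with AT7519 was 8.81-fold (log2 change 3.14, SE 0.211, adjusted p = 8.44e-08). SNORA66, in an intron of RPL5, was at 208 and 209.7 in control and 207 and 208 with OSMI-2, then at 512 and 661 with AT7519 and 672 and 1010 in the combination, a rise of 2.78-fold with AT7519 (log2 change 1.47, SE 0.2003, adjusted p = 2.81e-05). Of the 8 members in ribosomal protein genes, 5 rose with AT7519 and 8 in the combination, against 26% and 26.3% of all tested genes. SNORA68 and SNORA69 among the 8 passed the threshold on the mean only through the libraries with AT7519.

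Of the 8 members whose assigned, tested host is an SNHG gene, 6 rose with AT7519 (26% of all tested genes were called higher and 27.2% lower). SNHG17 alone holds 4 of the 8, SNORA71A to SNORA71D, which share up to 90.3% of their letters, so reads may be divided among them. Other members lie in SNHG genes that were not the assigned host: SNORA76 (in SNHG25) fell, SCARNA17 (in SNHG22) was not called, and SCARNA15 (in SNHG21) and SNORA74A (in MATR3 and SNHG4) rose. SNORA71B, in an intron of SNHG17, had 59.98 and 75.1 counts in control, 54.0 and 65.5 with OSMI-2, 526 and 775 with AT7519 and 679 and 565 in the combination. The 4 libraries with AT7519 stood apart from the others, and the rise with AT7519 was 9.39-fold (log2 change 3.23, SE 0.235, adjusted p = 1.56e-07). SNORA73B, in an intron of SNHG3, reached 483 and 525 with AT7519 and 212 and 301 in the combination. It rose 3.53-fold with AT7519 (log2 change 1.82, SE 0.249, adjusted p = 3.01e-05) and 1.78-fold in the combination (log2 change 0.83, adjusted p = 0.0117), the latter at -0.145 when mitochondrial mRNA was held equal and not called with equal totals (0.57) or without control replicate 1 (0.559) or combination replicate 2 (0.577).

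Of the other named members in coding hosts, SNORA53 and SNORA28 had fewer than 15 counts in each control library. SNORA53, which overlaps an exon of SLC25A3, had 11.8 and 14.7 counts in control, 25.5 and 12.4 with OSMI-2, 108 and 154 with AT7519 and 206 and 286 in the combination. SNORA28, in an intron of EIF5, had 11.8 and 7.33 in control, 7.85 and 4.14 with OSMI-2, 76.1 and 103 with AT7519 and 127 and 129.5 in the combination. For both RNAs every library with AT7519 lay above every library without it. SNORA53 rose 9.17-fold with AT7519 (log2 change 3.20, SE 0.387, adjusted p = 1.0e-05). SNORA28, with a mean of 7.77 without AT7519, is one of the 16 that had to differ, so its 8.67-fold difference is a description only. SNORA46 (CNOT1) rose 7.18-fold, from 58.2 and 40.3 to 261 and 480.0 counts. SNORA74A (MATR3) rose 7.59-fold, from 18.2 and 7.33 to 79.9 and 113, and SNORA23 (IPO7) rose 3.19-fold, from 37.6 and 21.1 to 83.7 and 102. The call of SNORA23 was lost with mitochondrial mRNA held equal (log2 change 0.78) and without control replicate 2 (1.27). SNORA14B (TOMM20), abundant in control at 194 and 296, rose 1.65-fold to 313 and 500.3 (adjusted p = 0.0237), but its log2 change was -0.189 with mitochondrial mRNA held equal, and the call was lost with equal totals (0.382) and without control replicate 1 (0.419) or AT7519 replicate 2 (0.387). SNORA63 (EIF4A2), a guide for ribosomal RNA with 7.64 and 5.49 counts in control and 13.9 and 20.3 with AT7519, was not called (adjusted p = 0.111).

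The 2 falls with AT7519 were in RNAs with a near-identical copy. SNORA76, the most abundant member per length in control, had 802 and 919 counts in control, 647 and 624 with OSMI-2, 710.1 and 587 with AT7519 and 450.1 and 350.1 in the combination. Every treated library was below both controls, and the combination libraries were the lowest. Its fall with AT7519 was 1.33-fold (log2 change -0.41, SE 0.161, adjusted p = 0.0436), a call that was lost with equal upper quartiles (-0.373, adjusted p = 0.064), with quantile normalisation (-0.106, adjusted p = 0.614) and without either control library or AT7519 replicate 2, while equal totals gave -0.754 and equal mitochondrial mRNA -1.33. Its fall in the combination was 2.16-fold (log2 change -1.11, SE 0.161, adjusted p = 4.37e-05). SNORA40, which overlaps an exon of TAF1D and was named after its values were seen, had 54.1 and 45.8 in control, 7.61 and 24.4 with AT7519 and 14.3 and 23.7 in the combination. It fell 3.43-fold with AT7519 (log2 change -1.78, SE 0.521, adjusted p = 0.01), while TAF1D itself went from 11342 and 11814 to 29155 and 32904 counts.

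**Figure D2:**
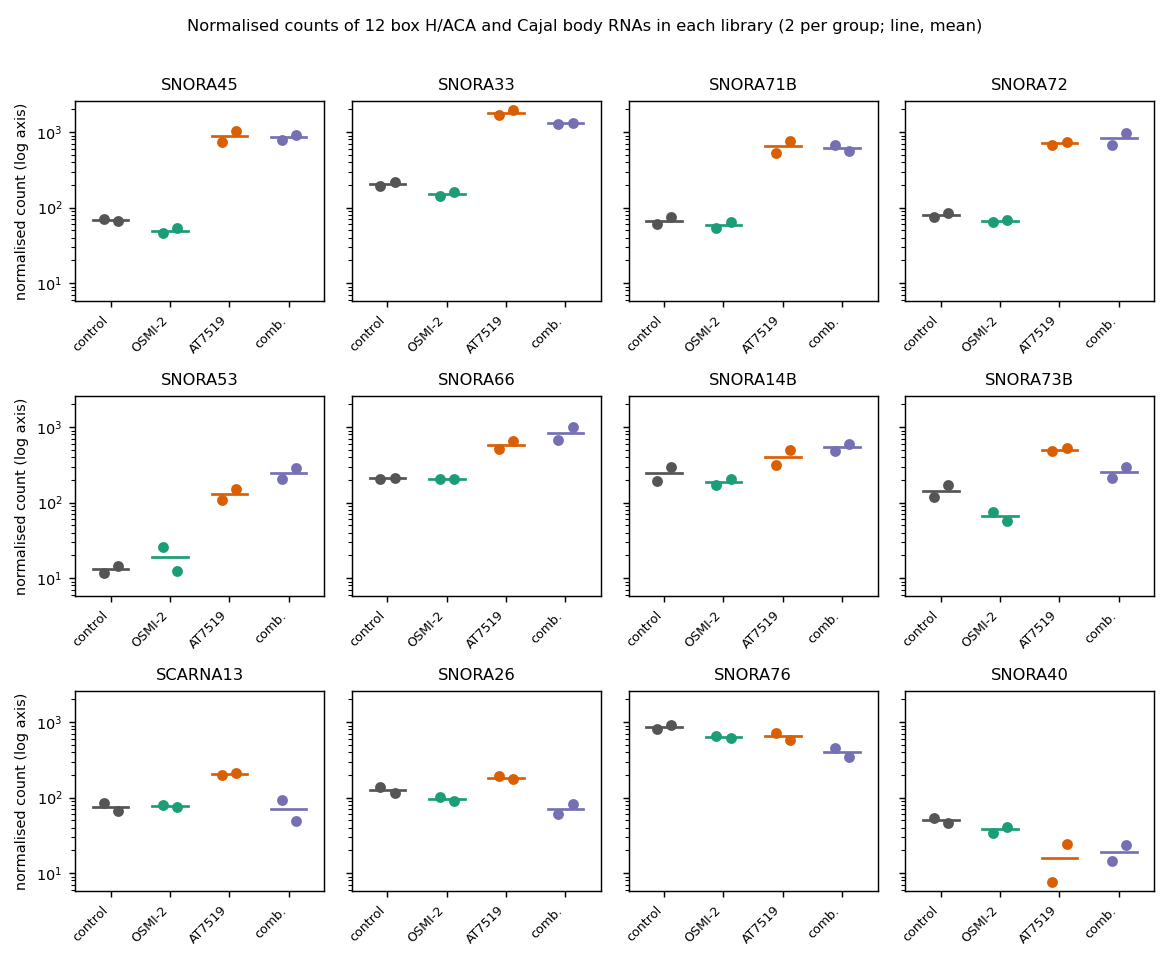
Normalised counts (log axis) of 12 of the RNAs in each library, with 2 points and a mean line a group. In SNORA45, SNORA33, SNORA71B, SNORA72 and SNORA53 every AT7519 and combination library stands above every control and OSMI-2 library; SNORA76 is highest in control, and SCARNA13 and SNORA26 are lower in the combination than with AT7519.

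Among the 17 Cajal body RNAs, 9 rose with AT7519 and 0 fell, where 26% of all tested genes were called higher and 27.2% lower. Of these 9, 5 (SCARNA1, SCARNA3, SCARNA4, SCARNA5 and SCARNA6) had a mean below 10 without AT7519 and had to differ, and among the 11 with a mean of at least 10 there, 4 rose. Of the RNAs with both kinds of domain, SCARNA6 went from 6.47 and 2.75 counts in control to 78.6 and 71.2, SCARNA5 from 1.76 and 10.1 to 16.5 and 26.4, and SCARNA10, whose domains guide changes of the U5 small nuclear RNA, from 71.8 and 65.0 to 181 and 240.0. SCARNA6 was 14.3-fold and SCARNA5 3.96-fold higher, as a description, since both passed the threshold on the mean only through AT7519. SCARNA10, above the threshold on both sides, rose 3.03-fold (adjusted p = 0.000258). SCARNA5 and SCARNA6 lie in introns of the same host, ATG16L1, whose counts were 2408 and 2429 in control and 2007 and 2356 with AT7519 (not called). Of the 10 H/ACA Cajal body RNAs 6 rose, 3 of them among the 6 with a mean of at least 10 without AT7519. SCARNA15 went from 608 and 678 to 1027 and 1190, a rise of 1.72-fold (adjusted p = 0.000894) whose log2 change was -0.131 with mitochondrial mRNA held equal. SCARNA21, at 88.8 and 85.2 in control and 95.1 and 179 with AT7519, was not called there (adjusted p = 0.122).

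None of the 4 box C/D Cajal body RNAs was called in any comparison with control (limma; 0 of the 4 had an unadjusted p below 0.05). SCARNA9 had 379 and 301 counts in control, 392 and 395 with OSMI-2, 293 and 554 with AT7519 and 519 and 277 in the combination. SCARNA17 had 171 and 124 in control, 196 and 153 with OSMI-2, 106 and 252 with AT7519 and 299 and 115 in the combination. In both, the AT7519 and combination libraries lay on either side of the control values, 1 above and 1 below. SCARNA2, a guide for the U2 small nuclear RNA, had 49.4 and 43.0 in control and 52.0 and 48.8 with AT7519, and SCARNA7 had 29.4 and 19.2 in control and 16.5 and 24.4 with AT7519. The log2 changes with AT7519 had 95% intervals of -0.37 to 0.88 for SCARNA9, -0.73 to 1.06 for SCARNA17, -0.71 to 0.96 for SCARNA2 and -1.24 to 0.77 for SCARNA7. Each interval includes 0 and spans more than 1 on the log2 scale. With mitochondrial mRNA held equal, all 4 had negative values, from -0.66 for SCARNA9 to -1.11 for SCARNA7, and 3 of them were called lower (SCARNA7, SCARNA9 and SCARNA17), where 75.6% of all tested genes were called lower. The difference between the classes was not tested.

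**Figure D3:**
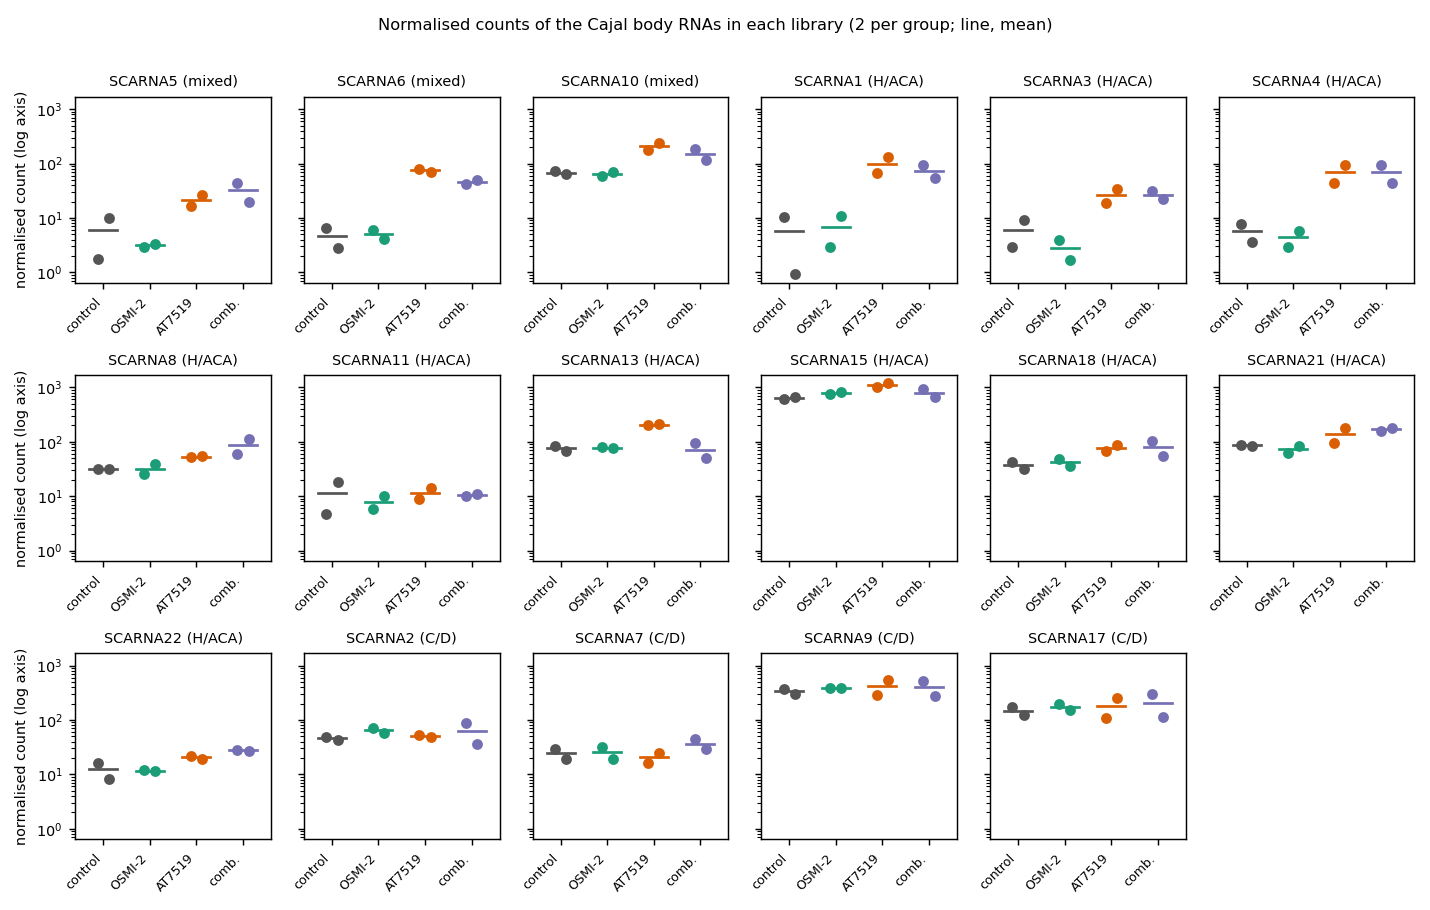
Normalised counts (log axis) of the 17 Cajal body RNAs in each library, with 2 points and a mean line a group, labelled by box class. SCARNA10 and SCARNA13 are higher with AT7519 than in control. So are SCARNA1, SCARNA4, SCARNA5 and SCARNA6, which passed the threshold on the mean only through AT7519 and had to differ. The 4 box C/D RNAs overlap control in every AT7519-treated group.

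Since these RNAs are cut from host transcripts, each was also set against its host in the same library, over the 275 small RNAs of any kind nested in a tested host. Relative to the host, 36 of 69 members rose with AT7519 and 3 fell, against 51.3% and 3.27% of the 275 nested RNAs, so the members' share was near that of nested small RNAs in general. The 69 include the 16 members with a mean below 10 without AT7519, whose own counts had to differ. They are part of every count and median of the members in this paragraph. The 275 were chosen by the same threshold on the mean. The median log2 change of the ratio was 1.25 for the members, 1.27 for 70 SNORD RNAs, 1.57 for 43 small nuclear RNAs, 1.67 for 32 genes of the class misc_RNA and 0.915 for 61 microRNA genes. Without control replicate 1, or without AT7519 replicate 2, 25 members were called instead of 39. The 59 hosts had a median log2 change of 0.392, with 33 higher and 11 lower, but with mitochondrial mRNA held equal 4 were higher and 40 lower and their median was -0.524. A ratio within a library is not moved by such a scaling. Among members that rose, 25 lay in a host that rose and 9 in a host that fell. Across the 69 pairs, Spearman's rho between the change of the RNA and that of its host was -0.137, a description over genes that share libraries.

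**Figure D4:**
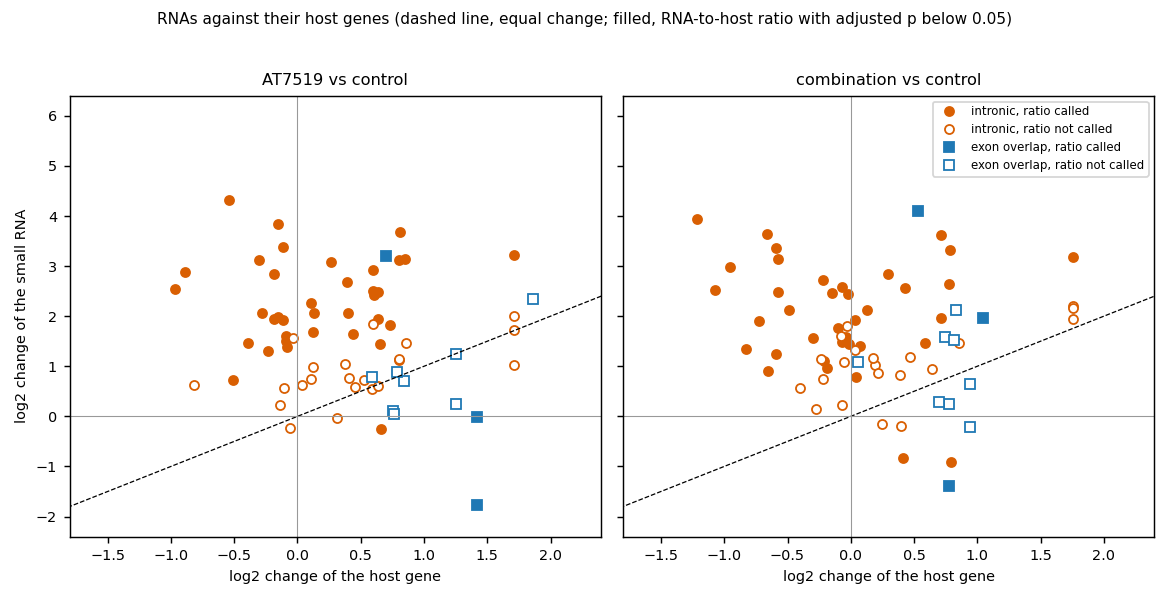
Log2 change of 69 RNAs (vertical) against that of their host genes (horizontal) with AT7519 and in the combination, each against control; the dashed line is equal change and filled points have an RNA-to-host ratio with an adjusted p below 0.05. Most intronic RNAs (circles) lie above the line whatever the host did, while RNAs that overlap a host exon (squares) mostly lie nearer to it or below, with SNORA53 the highest square. The 16 RNAs that passed the threshold on the mean only through AT7519, and had to differ, are included.

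SNORA45 and SNORA28 show both kinds of host. RPL27A went from 105183 and 105983 counts in control to 185163 and 184322 with AT7519, a log2 change of 0.81 that turned to -0.11 with mitochondrial mRNA held equal, and the ratio of SNORA45 to it rose by 2.87 on the log2 scale (SE 0.3602, adjusted p = 0.000245). EIF5 went from 30375 and 30331 to 26733 and 22642, and the ratio of SNORA28 to it was higher by 3.42. SNORA33 rose relative to RPS12 by 2.32 (SE 0.286, adjusted p = 0.000243). The ratio of SCARNA6 to ATG16L1 was higher by 3.99, and for SNORA28 and SCARNA6 these are descriptions, since both passed the threshold on the mean only through AT7519. SNORA66 did not pass this test against RPL5 (log2 change of the ratio 0.61, adjusted p = 0.138). The 3 ratios that fell were those of SNORA40 and SNORA25, both over an exon of TAF1D, and SNORA11, in an intron of MAGED2, at -3.20, -1.44 and -0.92.

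Members were also counted by position within the host. Of the 59 members wholly in an intron, 42 rose with AT7519 and 0 fell, with a median log2 change of 1.68. Of the 11 over an exon, 2 rose and 1 fell, with a median of 0.715, and all 11 lay in hosts that rose. In the combination 42 of the 59 rose and 2 fell (median 1.56), and 6 of the 11 rose and 1 fell (median 1.10). Among all tested genes 26% were called higher and 27.2% lower with AT7519, and 26.3% and 27.6% in the combination. These counts include the 16 members that passed only through the libraries with AT7519 and had to differ. SNORA63, SNORA68 and SNORA69 of them overlap an exon, and the others lie in introns. The difference between the positions was not tested. How reads over both a host exon and a small RNA were counted is not given in the sources used here, and its part in these counts was not tested. Across members, Spearman's rho of the AT7519 change was 0.0833 with transcript length and -0.0315 with GC content (76 members), and -0.249 with the control level (78 members). These are descriptions over RNAs that share the same libraries.

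**Figure D5:**
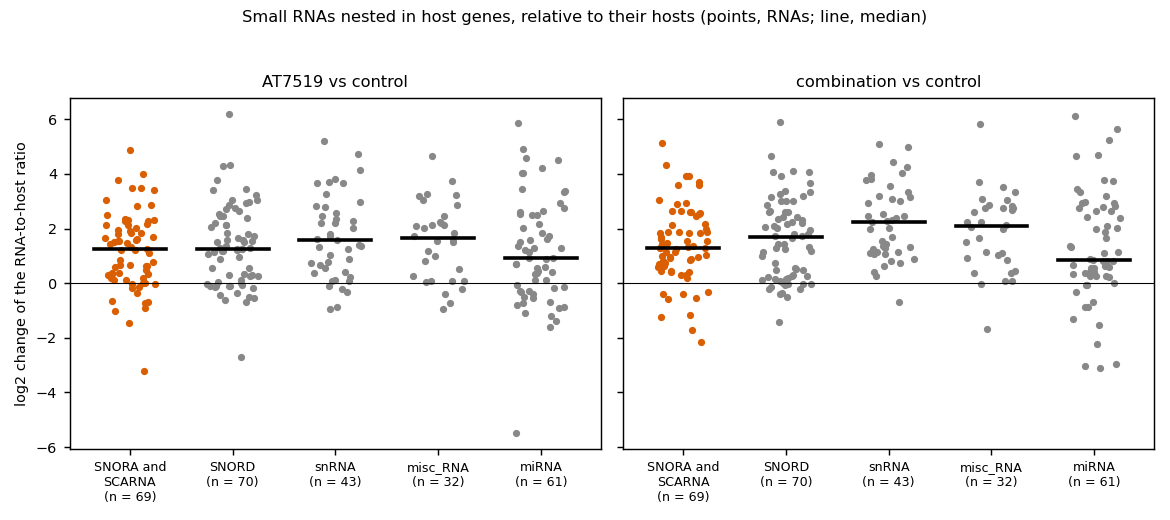
Log2 change of the RNA-to-host ratio for small RNAs nested in a tested host, by family, with AT7519 and in the combination against control; points are RNAs, jittered sideways, and lines are medians. With AT7519 the medians were 1.25 for SNORA and SCARNA and 1.27 for SNORD, and in every family most points lie above 0. All families were chosen by their mean over all 8 libraries, treated ones included.

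RNAs of a single host did not all change alike in size. There were 8 hosts with more than 1 member, 19 members in all, and their members were named after the values were seen. In SNHG17, whose own log2 change with AT7519 was 1.71, SNORA71B changed by 3.23, SNORA71C by 2.004, SNORA71A by 1.73 and SNORA71D by 1.03, the last with an interval of -0.08 to 2.14 and no call. In KANSL2, whose log2 change of 0.63 was -0.28 with mitochondrial mRNA held equal, SNORA2A changed by 2.48 (interval 1.86 to 3.10) and SNORA34 by 1.94, both called, and SNORA2B by 0.60 (interval -0.61 to 1.81), not called. In TAF1D, whose own change was 1.42, SNORA40 fell and SNORA25 was at -0.02. The differences between RNAs of 1 host were not tested, and members of the SNORA71 family shared up to 90.3% of their letters, so reads may be divided among them.

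The comparison of the combination with control shares its control libraries with that of AT7519. Against control, 50 members rose and 4 fell (26.3% and 27.6% of all tested genes), with a median log2 change of 1.45 against 0.0217 for all genes. Among the 62 with a mean of at least 10 on both sides, 39 rose and 4 fell, with a median of 1.28. Scaled to equal mitochondrial mRNA, 24 members rose and 10 fell, with a median of 0.488 against -0.947 for all genes. SNORA53 had the largest rise among members with a mean of at least 50, 17.3-fold (log2 change 4.11, SE 0.387, adjusted p = 8.06e-07). SNORA28, again as a description, was 12.5-fold higher. SNORA45 rose 12.3-fold (adjusted p = 1.44e-08) and SNORA72 10.03-fold (adjusted p = 2.98e-08). SCARNA21 reached 156 and 182 counts and rose 1.93-fold (adjusted p = 0.0163), though its log2 change was -0.023 with mitochondrial mRNA held equal. Its call was also lost with equal totals (0.69), with no trend, without control replicate 1 (0.977) or 2 (0.917) and without combination replicate 2 (0.834). Relative to hosts, 37 of 69 rose and 3 fell, against 58.2% and 4.36% of all nested small RNAs. These 69 again include the 16 members that had to differ. Against OSMI-2 alone, 50 members rose and 2 fell in the combination (27.5% and 27.3% of all tested genes). Of the same 62, 39 rose and 2 fell in that comparison.

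The 4 that fell in the combination were SNORA76, SNORA40, SNORA11 and SNORA26. SNORA11 had 152 and 103 counts in control, 137 and 116 with OSMI-2, 96.4 and 113 with AT7519 and 69.7 and 62.0 in the combination. SNORA26, in an intron of DANCR, had 137 and 116 in control, 103 and 91.2 with OSMI-2, 194 and 175 with AT7519 and 60.5 and 82.1 in the combination. For both, the combination libraries were below every other library. SNORA11 fell 1.89-fold (log2 change -0.92, SE 0.272, adjusted p = 0.0108), a call that was lost without control replicate 1 (-0.634). SNORA26 fell 1.78-fold (log2 change -0.83, SE 0.254, adjusted p = 0.0126), a call that was lost without control replicate 1 (-0.715) or combination replicate 1 (-0.615). Other annotated copies of SNORA11 shared up to 86.7% of its letters.

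Between the combination and AT7519 alone, 6 members fell and 0 rose, against 12.5% of tested genes called lower and 7.21% higher. SCARNA13, in an intron of SNHG10, had 85.3 and 66.8 counts in control, 79.5 and 75.4 with OSMI-2, 200.4 and 215 with AT7519 and 94.3 and 49.2 in the combination. The AT7519 libraries alone stood above the rest, and the combination libraries overlapped control. SCARNA13 was 3.01-fold lower in the combination than with AT7519 (log2 change -1.59, SE 0.3097, adjusted p = 0.00311), and SNORA26 was 2.59-fold lower (log2 change -1.37, SE 0.254, adjusted p = 0.00223). Falls were smaller for SNORA73B (1.99-fold, adjusted p = 0.0132), SNORA76 (1.62-fold, adjusted p = 0.00817), SCARNA15 (1.40-fold, adjusted p = 0.0477) and SNORA33 (1.38-fold, adjusted p = 0.0439). The calls of SCARNA15 and SNORA33 were lost with equal totals (adjusted p = 0.11 and 0.102), with equal upper quartiles (0.12 and 0.11) and with quantile normalisation (0.0884 and 0.0968). That of SNORA33 was also lost when any 1 of the 8 libraries was left out. That of SCARNA15 was lost when any library except combination replicate 1 was left out. The host SNHG10 had 2981 and 2607 counts with AT7519 and 2444 and 1807 in the combination, and DANCR had 23682 and 25157 and then 20862 and 22380. Without combination replicate 2, the shallowest library, 3 members were called, and 2 of the 6 were called without each library in turn.

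Whether the effect of OSMI-2 differed with AT7519 present was tested by the interaction. None of the 78 members passed limma's test (0.0619% of tested genes were called higher and 0.975% lower), 8 had an unadjusted p below 0.05 (1962 of all 19393 tested genes), edgeR with TMM called 0, and edgeR with DESeq2 size factors and DESeq2 each called 1. SCARNA13 had a log2 interaction of -1.63 (SE 0.438, adjusted p = 0.109) and SCARNA15 one of -0.78 (SE 0.228, adjusted p = 0.146). SNORA69, over an exon of RPL39 and singled out after its values were seen, had the smallest adjusted p, 0.0626, at 3.69. Its counts were 13.5 and 16.5 in control, 1.96 and 3.31 with OSMI-2, 13.9 and 17.3 with AT7519 and 26.7 and 82.1 in the combination, so the OSMI-2 libraries were near the floor. Without combination replicate 1, 3 members were called.

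The mRNAs of proteins that carry these RNAs were described as a list. In this list of 10 H/ACA core and assembly proteins, 6 rose and 1 fell with AT7519, with a median log2 change of 0.443. Among all tested genes 26% were called higher and 27.2% lower. NHP2, a core protein, went from 10831 and 11755 counts in control to 17205 and 17263, a rise of 1.53-fold (adjusted p = 1.42e-05). NOP10, another, rose 1.55-fold (adjusted p = 9.05e-06), while DKC1 (11060 and 12224, then 13483 and 12778) was not called (adjusted p = 0.0796). With OSMI-2, 0 of the 10 rose and 6 fell (0.645% and 2.38% of all tested genes), with GAR1 lowest at 1.49-fold (adjusted p = 0.00916). Between the combination and AT7519, 0 rose and 7 fell (7.21% and 12.5% of all tested genes). With mitochondrial mRNA held equal, the log2 changes with AT7519 were -0.30 for NHP2 and -0.28 for NOP10, so their direction depends on the scaling.

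In the list of 13 Cajal body and telomerase genes, 4 rose and 7 fell with AT7519, with a median log2 change of -0.363. Of all tested genes 26% were called higher and 27.2% lower. COIL, which encodes the scaffold protein coilin, had 4611 and 5011 counts in control, 3972 and 3938 with OSMI-2, 3619 and 3163 with AT7519 and 2210 and 1638 in the combination. It fell 1.42-fold with AT7519 (adjusted p = 0.00357) and was 1.78-fold lower in the combination than with AT7519 (adjusted p = 0.000607). WRAP53, which binds Cajal body RNAs and brings them there, rose 1.27-fold with AT7519 (adjusted p = 0.00716), but was at -0.57 on the log2 scale with mitochondrial mRNA held equal. In the list of 11 genes of small RNA 3′ end maturation 1 rose and 4 fell with AT7519, and in that of 7 box C/D proteins 4 rose and 1 fell. NHP2L1, a box C/D protein, was counted in both lists, and it was the 1 rise in the first. It had 9609 and 10351 counts in control and 16753 and 16692 with AT7519. Both lists stand against the same 26% and 27.2% of all tested genes.

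TERC, the telomerase RNA, is an H/ACA RNA with its own promoter rather than a host, and it moved the other way. Its counts were 49.4 and 52.2 in control, 32.4 and 28.2 with OSMI-2, 10.1 and 18.3 with AT7519 and 8.20 and 9.12 in the combination, with the AT7519-treated libraries all below the others. It fell 3.53-fold with AT7519 (log2 change -1.82, SE 0.4701, adjusted p = 0.00462) and 5.37-fold in the combination (log2 change -2.42, adjusted p = 0.000541). The fall with OSMI-2, of 1.66-fold, was not called (adjusted p = 0.473).

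Over the 8 libraries, the tested genes outside the members with the pattern most like SNORA73B were SYAP1, VDAC1, CRADD, BLMH and SSU72, with Pearson's r of log2(normalised count + 1) from 0.998 to 0.993. For SCARNA7 they were AC009303.3, CTD-2384A14.1, HUWE1, RP11-370A5.1 and ANKRD20A7P, with r from 0.965 to 0.946. With 4 groups of 2 these correlations mostly rank genes by their group means.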

How the data were processed

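Strand-specific TruSeq libraries were made from total RNA, per the labels' protocols. STAR, HTSeq, DESeq2, hg19 and GRCh37 are named in the submitters' processing notes; for versions, roles, annotation and strand, these sources have no entry. Each deposited value is a signal: the authors' gene count after scaling by a size factor, since each column's smallest step gave whole reads for 100% of values within 0.01. A total of 28 lines without a gene name were dropped.

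Genes with a mean of at least 10 (19393 of 55737) were tested with limma 3.58.1 in R 4.3.3 on log2(value + 1), all 4 groups in 1 fit with a mean-variance trend, two-sided, Benjamini-Hochberg adjusted within each of 6 comparisons at 0.05. Ratios to hosts were fitted the same way over 275 nested small RNAs. edgeR 4.0.16 and DESeq2 1.42.0 ran on the recovered reads as alternatives, and the fits were tested on simulated data. Hosts, classes and sequences came from GENCODE 29 by symbol; its build differs from the authors', so no positions are given. Folds used RNAfold. Intervals are at 95% and are limma's.

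Named members were the 6 largest rises and falls per comparison among called members with a mean of at least 50, a preset list of known RNAs, and the 10 highest means; others are said to be named after their values were seen. The members and lists were chosen with earlier results of these data known. Groups came from the sample titles. Alternatives covered pseudocount, filter, scaling, trend, tool, replicate block and each library left out. A luminal marker of the list is not reported here.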

Additional observations from a re-analysis of the deposited data

How the results depend on the processing

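Under the 21 alternatives, 1612 of 1756 values of single named members kept their direction and their side of the threshold, 89 lost the call, 11 gained one and 44 changed sign. With mitochondrial mRNAs set equal, a scaling that lowers every AT7519-treated library, log2 changes turned negative for SCARNA2 (-0.773), SCARNA9 (-0.66), SCARNA17 (-0.743), SCARNA21 (-0.327), SCARNA15 (-0.131), SNORA14B (-0.189) with AT7519, and SCARNA2 (-0.672), SCARNA7 (-0.373), SCARNA9 (-0.809), SCARNA17 (-0.628), SCARNA21 (-0.023), SNORA73B (-0.145), SNORA63 (-0.233), SCARNA15 (-0.679) in the combination, and SCARNA7 (-0.0803), SCARNA13 (-0.0879) with OSMI-2. With equal totals the sign changed for SCARNA2 (-0.211), SCARNA9 (-0.0884), SCARNA17 (-0.174) with AT7519, and SCARNA9 (-0.0916) in the combination, and SNORA66 (0.0652) with OSMI-2, with equal upper quartiles for SNORA66 (0.0488) with OSMI-2, and with quantile normalisation for SCARNA7 (-0.0476), SCARNA13 (-0.0716) with OSMI-2. Leaving out each library in turn changed the sign of values that had no call, with ranges of -0.529 to 0.059 for SCARNA7, -0.205 to 0.713 for SCARNA9, -0.451 to 0.784 for SCARNA17 with AT7519, then -0.33 to 0.904 for SCARNA2, -0.284 to 0.617 for SCARNA9, -0.607 to 0.317 for SCARNA13, -0.343 to 1.03 for SCARNA17 in the combination, then -1.42 to 0.577 for SCARNA5, -0.328 to 0.667 for SCARNA6, -0.306 to 0.386 for SCARNA7, -0.187 to 0.00982 for SCARNA10, -0.138 to 0.209 for SCARNA13, -0.891 to 0.317 for SNORA74A, -0.0737 to 0.908 for SNORA53 with OSMI-2. A mean of at least 50, which leaves fewer RNAs to test, gave 30 members called with AT7519, 30 in the combination and, relative to OSMI-2, 31 there, and 20 and 23 relative to hosts with AT7519 and in the combination. Equal mitochondrial mRNAs gave 34 in the combination, 4 with OSMI-2 and 2 in the interaction. With OSMI-2, 0 members were called with no filter, with equal totals, with equal upper quartiles and with no trend. With no trend 1 was called between the combination and AT7519. In the interaction, edgeR with DESeq2 size factors, DESeq2 and the replicate block each called 1. Leaving out each library in turn gave 35 to 51 members called with AT7519, 39 to 56 in the combination (44 to 53 when set against OSMI-2), 3 to 6 in the combination against AT7519, 0 to 1 with OSMI-2 and 0 to 3 in the interaction; 25 to 40 relative to hosts with AT7519, 35 to 41 in the combination and 0 with OSMI-2. Of the 50 called with AT7519, 31 were called without each library in turn, and 30 of the 54 in the combination. Where a group kept 1 library, it was assumed to vary like the others. Equal replicate numbers share no stated culture or day, and deviations of same-numbered libraries correlated at 0.0207 to 0.123 over 6 pairs of groups. Such weak correlations cannot exclude a shared culture or day, so whether the numbers pair the libraries is not known. With the replicate block, 50 members were called with AT7519, 55 in the combination and 38 relative to hosts with AT7519. The cause of these differences was not tested, beyond what an alternative's own construction shows. Standard errors with AT7519 ran from 0.152 for SNORA33 (mean 873 counts) to 0.829 for SNORA74B (mean 11.2 counts), so small changes were not detectable in the rarer members.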
